A study of Mus musculus with 2 samples.

Results

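The genes of IL-12 and IL-23 receptor signalling were followed in mouse CD4 T cells that were driven into pathogenic (pTh17) or non-pathogenic (npTh17) Th17 cells. The set holds 6 genes taken by name, Il12rb1, Il12rb2, Il23r, Stat4, Jak2 and Tyk2, out of 22036 named genes in the deposited count table. Each had 1 row. The cells came from the spleen and lymph nodes of mice of wild-type genotype and grew on plates coated with anti-CD3 (10 μg/mL) and anti-CD28 (5 μg/mL) for 24 h. The pTh17 culture was given activin A, a ligand of the TGF-β family, at 20 ng/mL beside IL-6 at 20 ng/mL. The npTh17 culture was given TGFβ1 at 2 ng/mL beside the same dose of IL-6. Antibodies that neutralise IFNγ and IL-4 were in both media, and the labels list neither IL-12 nor IL-23 among the additions.

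Each culture gave 1 library of polyadenylated RNA, with 30877656 counts on named genes in the pTh17 and 33470161 in the npTh17 library. Conditions could not be tested against each other, having 1 library each. Every ratio below compares these 2 libraries, and the range after it is the 95% counting interval, which holds no variation between cultures. In such bulk samples, more cells that express a gene and more RNA per cell cannot be told apart. The 5 T cell markers Cd4, Cd3e, Cd3d, Cd3g and Cd28 summed to 1377 CPM (counts scaled to a common library total) in the pTh17 and 1393 CPM in the npTh17 library, with Cd28 alone at 806 CPM in the pTh17 and 722 CPM in the npTh17 library. Within that sum the markers differed in both directions, with log2 ratios, pTh17 over npTh17, of −0.59 (−0.64 to −0.54) for Cd3e, −0.45 (−0.53 to −0.38) for Cd3g, −0.046 (−0.093 to 0.0011) for Cd4, 0.16 (0.13 to 0.19) for Cd28 and 0.27 (0.20 to 0.35) for Cd3d.

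IL-12 and IL-23 are paired cytokines that share the subunit p40, and their receptors share the chain IL-12Rβ1, encoded by Il12rb1. IL-12Rβ1 pairs with IL-12Rβ2 (Il12rb2) to bind IL-12 and with IL-23R (Il23r) to bind IL-23. The kinases TYK2, bound to IL-12Rβ1, and JAK2, bound to the second chain, then phosphorylate STAT proteins. STAT4 is the main transducer of IL-12 in Th1 cells, while IL-23 acts mostly through STAT3 in Th17 cells, whose inflammatory program it maintains.

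All 6 genes had a ratio above 1, that is, more CPM in the pTh17 than in the npTh17 library, and 3 of them, Il12rb2, Il23r and Stat4, were at least 2-fold higher. Of all 10597 genes tested, those whose mean reached 1 CPM, 49.4% had a ratio above 1, and 2.25% reached 2-fold in the pTh17 direction. In either direction, 4.20% of all genes were past 2-fold, and 50.6% had a ratio below 1. The mean of each of these 3 genes over the 2 libraries lies between 5 and 20 CPM, where 2.63% of 2206 genes reached 2-fold in that direction. In the npTh17 library alone, Il12rb2 stood at 2.81 CPM, Il23r at 3.44 CPM and Stat4 at 5.30 CPM. The median log2 ratio was 1.11 over the 6 genes and −0.0045 over all genes tested. None of the 6 fell under the 1 CPM filter. The chains that give each receptor its specificity differed most, the shared chain and the STAT less, and the kinases least.

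**Figure D1:**
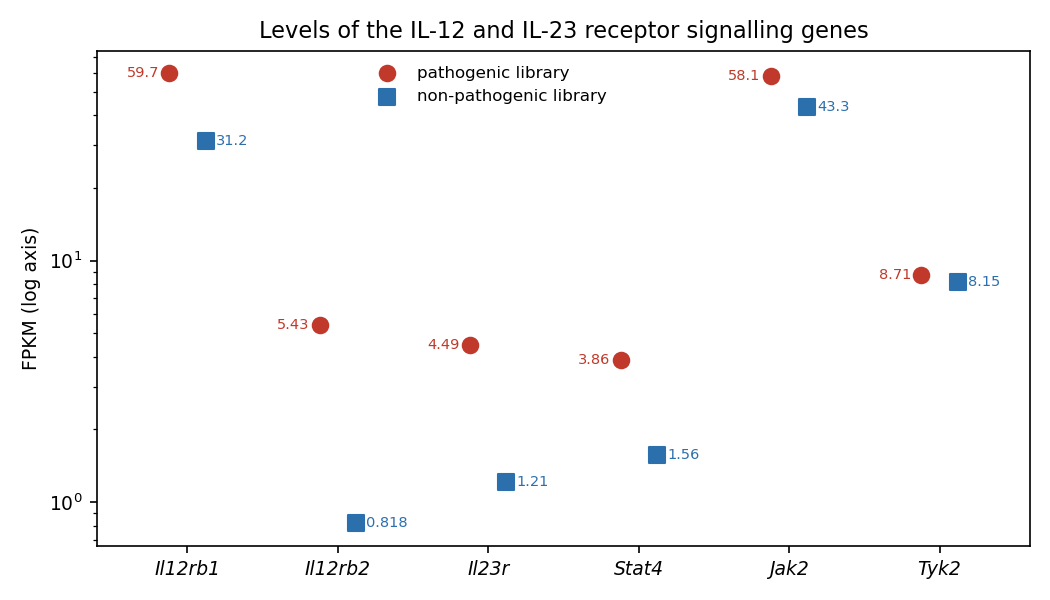
Level of each gene in FPKM (log axis), with the pTh17 library as red circles and the npTh17 library as blue squares, 1 library each and no error bars. Il12rb1 and Jak2 stand above 30 FPKM in both libraries, while Il12rb2, Il23r and Stat4 stand between 3.86 and 5.43 FPKM in the pTh17 and between 0.818 and 1.56 FPKM in the npTh17 library.

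Il12rb2 (ENSMUSG00000018341, chromosome 6, 67291318 to 67376188, minus strand), the chain that makes a cell responsive to IL-12, differed most. It had 575 counts in the pTh17 and 94 in the npTh17 library, with levels of 5.43 FPKM (fragments per kilobase of transcript, scaled to library depth) in the pTh17 and 0.818 FPKM in the npTh17 library. The ratio was 6.55-fold (5.31 to 8.31), the 17th highest among the 10597 genes. By FPKM, the gene stood at percentile 30.9 of those genes in the pTh17 and 6.88 in the npTh17 library. A level near the bottom of the range of measured genes in the npTh17 library thus met a low to moderate level in the pTh17 library.

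The end of Il12rb2 lies under another gene. Of its 3794 annotated exonic bases, 1519 (40.0%) are shared with exons of Serbp1, which encodes an mRNA-binding protein and runs on the opposite strand. Serbp1 is abundant, with 52230 counts in the pTh17 and 53994 in the npTh17 library, and its log2 ratio was 0.064 (0.047 to 0.081). Whether counting used the strand is not given in the sources used here, so reads of the pair cannot be told apart there. The counts of Il12rb2 amounted to 1.10% of those of Serbp1 in the pTh17 and 0.174% in the npTh17 library, and the part of Serbp1 reads in the ratio was not tested.

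Il23r (ENSMUSG00000049093, chromosome 6, 67422932 to 67491855, minus strand), the chain that confers the response to IL-23, had 395 counts in the pTh17 and 115 in the npTh17 library. Its level was 4.49 FPKM in the pTh17 and 1.21 FPKM in the npTh17 library, a ratio of 3.69-fold (3.01 to 4.61) that ranked 49th. No other annotated gene overlapped it. Il12rb2 and Il23r are adjacent protein-coding genes on the same strand and lie 46.7 kb apart.

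Il12rb1 (ENSMUSG00000000791, chromosome 8, 70808449 to 70821424, plus strand), the shared chain, was far more abundant than both partners. It had 5791 counts in the pTh17 and 3348 in the npTh17 library, with levels of 59.7 FPKM in the pTh17 and 31.2 FPKM in the npTh17 library. The ratio of 1.87-fold (1.79 to 1.95) lay under 2-fold with its whole interval, and past 1.5-fold, as were 7.20% of all genes in the pTh17 direction and 5.76% in the npTh17 direction. Its counting interval is the narrowest of the receptor chains.

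Stat4 (ENSMUSG00000062939, chromosome 1, 51987148 to 52107189, plus strand), the IL-12 transducer, had 407 counts in the pTh17 and 177 in the npTh17 library. Its level was 3.86 FPKM in the pTh17 and 1.56 FPKM in the npTh17 library, at a ratio of 2.48-fold (2.08 to 2.98). This call was the least firm of the 3. The log2 ratio was 1.31 by counts and 0.92 by FPKM with a pseudocount of 1, which shrinks the ratios of low genes. Of its 3872 exonic bases, 1033 are shared on the same strand with Gm28177, a transcript for which no values are used here.

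Jak2 (ENSMUSG00000024789, chromosome 19, 29251828 to 29313080, plus strand), the kinase of the specific chains, had 10312 counts in the pTh17 and 8268 in the npTh17 library. It stood at 58.1 FPKM in the pTh17 and 43.3 FPKM in the npTh17 library, and was 1.35-fold higher (1.31 to 1.39). Tyk2 (ENSMUSG00000032175, chromosome 9, 21104068 to 21131243, minus strand), the kinase of the shared chain, had 1446 counts in the pTh17 and 1457 in the npTh17 library. At 8.71 FPKM in the pTh17 and 8.15 FPKM in the npTh17 library, it was the single member whose log2 ratio of 0.10 (−0.0049 to 0.21) did not differ from 0 beyond counting error. An antisense gene covers 8.07% of the exonic bases of Tyk2. Both kinases lay inside the range that holds 90% of all genes, between log2 ratios of −0.63 and 0.70.

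**Figure D2:**
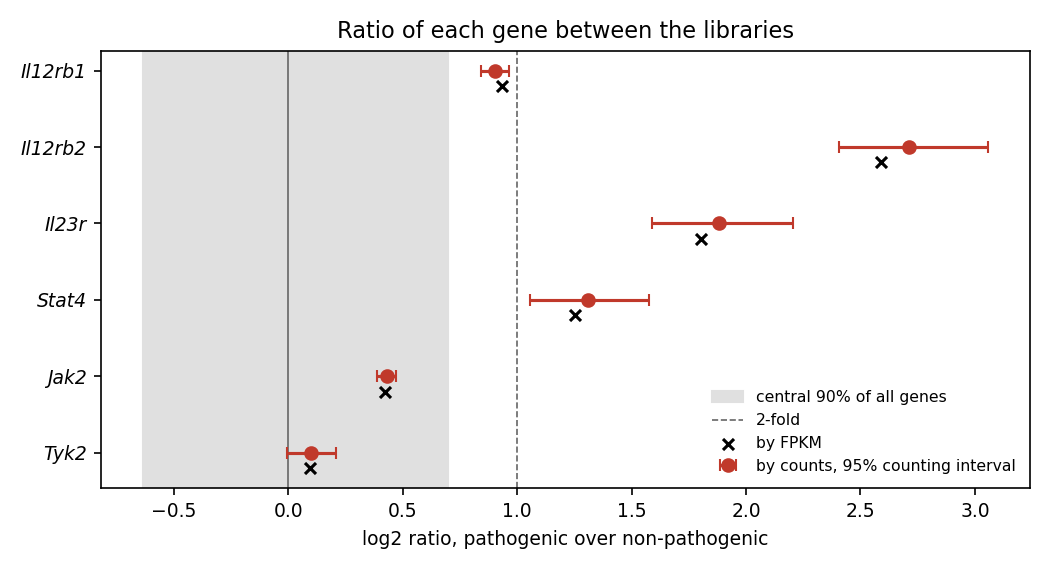
Log2 ratio of each gene, pTh17 over npTh17, by counts with its 95% counting interval (red) and by FPKM with a pseudocount of 0.1 (crosses), over the central 90% of all genes in grey and the 2-fold line. Il12rb2, Il23r and Stat4 lie past 2-fold with their whole intervals, Il12rb1 lies between the grey band and the line, and Jak2 and Tyk2 lie in the band.

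The sequences before the annotated starts of the 3 genes past 2-fold are shown because Il12rb2, Il23r and Stat4 differed in the same direction. They are RefSeq sequences on GRCm38.p6, the 250 bases upstream of each start, 5′ to 3′ on the gene's strand. Il12rb2 lies at chr6:67376189-67376438 (minus strand), Il23r at chr6:67491856-67492105 (minus strand) and the starts of Stat4 at chr1:51986898-51987147 and chr1:52007990-52008239 (plus strand). Capitals mark matches to the motifs searched.
Il12rb2: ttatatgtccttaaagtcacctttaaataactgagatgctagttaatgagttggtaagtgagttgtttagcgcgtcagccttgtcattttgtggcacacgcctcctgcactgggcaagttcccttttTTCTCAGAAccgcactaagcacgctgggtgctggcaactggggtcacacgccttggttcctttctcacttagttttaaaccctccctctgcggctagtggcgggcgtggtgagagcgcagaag
Il23r: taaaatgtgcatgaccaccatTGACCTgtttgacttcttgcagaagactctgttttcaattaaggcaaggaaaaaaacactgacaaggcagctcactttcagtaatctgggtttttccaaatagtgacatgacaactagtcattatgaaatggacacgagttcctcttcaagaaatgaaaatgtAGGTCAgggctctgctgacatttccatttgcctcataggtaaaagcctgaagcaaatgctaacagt
Stat4, upstream start: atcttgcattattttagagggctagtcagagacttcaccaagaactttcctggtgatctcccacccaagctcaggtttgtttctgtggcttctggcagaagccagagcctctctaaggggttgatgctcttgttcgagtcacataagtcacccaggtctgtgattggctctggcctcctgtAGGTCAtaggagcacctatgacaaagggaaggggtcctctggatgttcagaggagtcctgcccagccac
Stat4, downstream start: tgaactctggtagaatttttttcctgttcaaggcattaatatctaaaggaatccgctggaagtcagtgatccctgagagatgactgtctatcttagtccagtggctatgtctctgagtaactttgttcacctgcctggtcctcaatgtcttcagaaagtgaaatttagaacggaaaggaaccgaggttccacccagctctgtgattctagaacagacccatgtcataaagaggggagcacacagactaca

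The motifs were searched on both strands. They were a STAT site (TTCNNNGAA), a Foxo site (TGTTTAC), an AP-1 site (TGANTCA), a SMAD palindrome (GTCTAGAC) and the half-site AGGTCA that ROR and other nuclear receptors bind. The STAT site stood once before Il12rb2, 123 to 115 bases upstream, and is held by 7.02% of the 32851 annotated starts. The ROR half-site stood at 2 places before Il23r, 229 to 224 and 66 to 61 bases upstream. It also stood once before the upstream start of Stat4, 69 to 64 bases away, and is held by 14.0% of starts. The Foxo, AP-1 and SMAD letters, held by 3.17%, 6.75% and 0.167% of starts, were in none of these windows. The table matched 5 of the 6 genes and not Il12rb1, and the windows of Jak2 and Tyk2 held none of the 5 motifs. No 2 matches overlapped, and these matches describe the letters only.

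Levels can be compared between genes by FPKM, which corrects for length. In the pTh17 library the order was Il12rb1, Jak2, Tyk2, Il12rb2, Il23r and Stat4. In the npTh17 library it was Jak2, Il12rb1, Tyk2, Stat4, Il23r and Il12rb2, so the 3 scarcest genes stood in the opposite order. Il12rb1 and Jak2 did not differ beyond counting error in the pTh17 library, at an FPKM ratio of 1.03 (0.995 to 1.06), whereas Jak2 was 1.38 times Il12rb1 in the npTh17 library (1.33 to 1.44). Il23r was 1.16 times Stat4 in the pTh17 library (1.01 to 1.34), and Stat4 was 1.29 times Il23r in the npTh17 library (1.01 to 1.64). Both of these intervals start close to 1, and they hold no error in the lengths used for FPKM.

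RNA of the shared chain exceeded that of its partners in both cultures, and less so in the pTh17 one. These ratios and those below are of RNA levels and do not give the ratios of receptor proteins. Il12rb2 amounted to 9.10% of Il12rb1 in the pTh17 and 2.62% in the npTh17 library, by FPKM. That share was 3.54 times as high in the pTh17 library (2.83 to 4.46, from counts). Il23r amounted to 7.52% of Il12rb1 in the pTh17 and 3.88% in the npTh17 library, a change of 1.99 times (1.60 to 2.48). Together, the partners came to 9.92 FPKM in the pTh17 and 2.03 FPKM in the npTh17 library, so Il12rb1 stood at 6.02 times their sum in the pTh17 and 15.4 times in the npTh17 library.

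Between the 2 specific chains the balance differed as well. Il12rb2 was 1.21 times Il23r in the pTh17 library (1.06 to 1.38) by FPKM, whereas Il23r was 1.48 times Il12rb2 in the npTh17 library (1.12 to 1.97). The change of this ratio was 1.78 times (1.30 to 2.44), so the IL-12 specific chain differed more between the libraries than the IL-23 specific chain, beyond counting error. By these FPKM values, the chain that was scarcer in the npTh17 library was the more abundant one in the pTh17 library. The intervals of both ratios within a library start close to 1 and can be too narrow. Reads of Serbp1 may be part of the Il12rb2 level, here and in its ratios to other genes, which was not tested.

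Jak2 exceeded Tyk2 by 6.67 times in the pTh17 and 5.31 times in the npTh17 library, a change of 1.26 times (1.16 to 1.36). Stat4 amounted to 6.64% of Jak2 in the pTh17 and 3.61% in the npTh17 library, a change of 1.84 times (1.54 to 2.22). Relative to Tyk2 it stood at 44.3% in the pTh17 and 19.1% in the npTh17 library, a change of 2.32 times (1.91 to 2.82). Receptor chains and STAT thus gained on the kinases in the pTh17 library. Il12rb2 also gained on Stat4, at 1.41 times Stat4 in the pTh17 and 0.524 times in the npTh17 library, a change of 2.66 times (1.99 to 3.56).

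**Figure D3:**
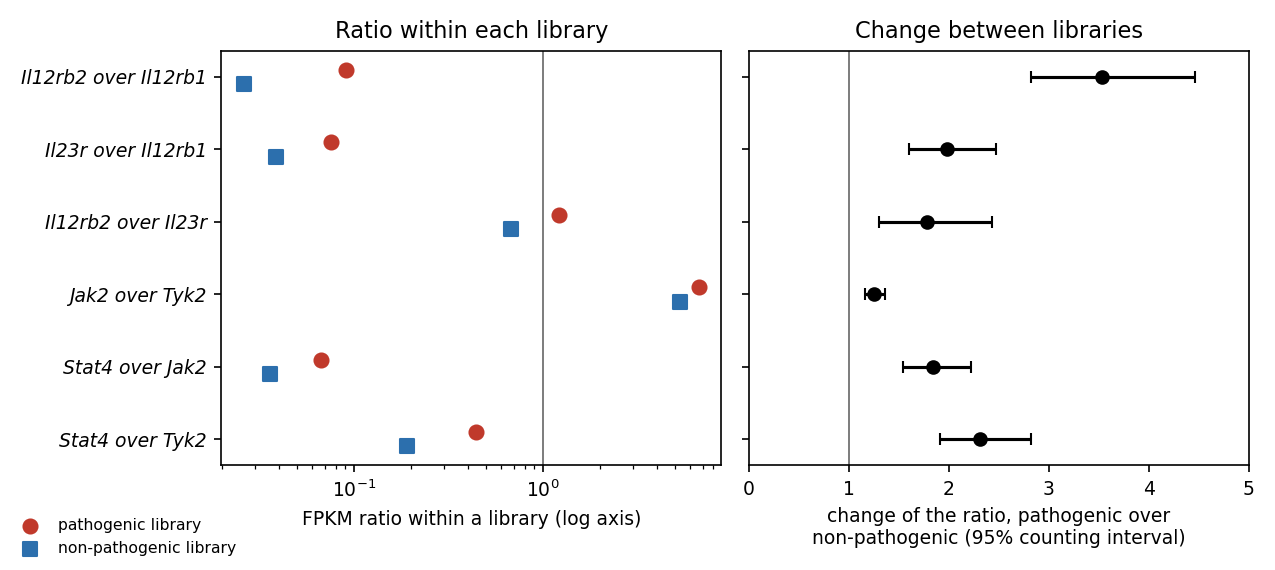
Left, FPKM ratio of gene pairs within each library (log axis), with the pTh17 library as red circles and the npTh17 library as blue squares. Right, change of that ratio, pTh17 over npTh17, from counts with its 95% counting interval; all 6 changes lie above 1, the largest at 3.54 for Il12rb2 over Il12rb1.

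Most other kinases and STATs of the family did not share the direction of Stat4 and Jak2, with Stat6 at a log2 ratio of 0.12 as the exception. Of the 8 other JAK and STAT genes, 1 had a ratio above 1 and 7 below, none was past 2-fold in either direction, and the median log2 ratio was −0.19. For all genes tested, 50.6% had a ratio below 1 and 4.20% were past 2-fold in either direction, so most genes stayed under 2-fold. Stat3, the IL-6 and IL-23 transducer, was abundant, at 92.2 FPKM in the pTh17 and 117.3 FPKM in the npTh17 library, with a log2 ratio of −0.33 (−0.37 to −0.30). Jak1 and Stat5b had log2 ratios of −0.22 (−0.25 to −0.18) and −0.21 (−0.25 to −0.17).

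Stat4 was scarce beside Stat3 in both cultures. By FPKM it stood at 4.19% of Stat3 in the pTh17 and 1.33% in the npTh17 library, a change of 3.13 times (2.62 to 3.76). Jak2 made up 29.4% of the summed FPKM of the 4 JAK genes in the pTh17 and 21.7% in the npTh17 library, and Tyk2 made up 4.40% in the pTh17 and 4.08% in the npTh17 library. The JAK sum itself was close in both, at 197.7 FPKM in the pTh17 and 199.7 FPKM in the npTh17 library.

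**Figure D4:**
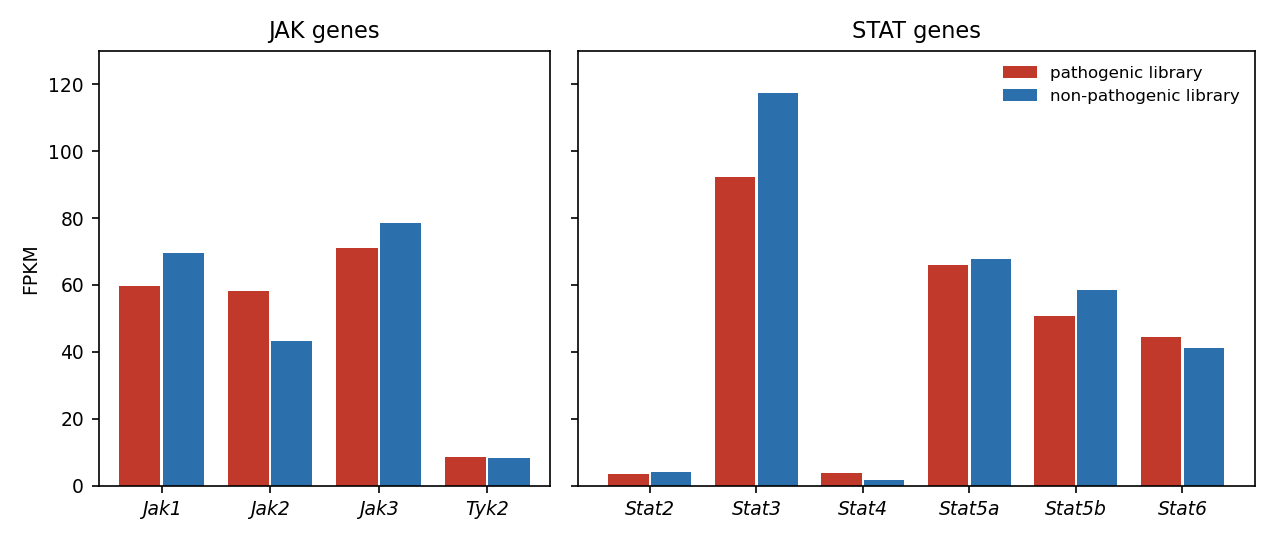
FPKM of the 4 JAK genes and 6 STAT genes as bars from 0, pTh17 library in red at the left of each pair and npTh17 library in blue, 1 library each. Jak2 and Stat4 are higher in the pTh17 library, while Jak1, Jak3 and Stat3 are lower there, and Stat4, at 3.86 FPKM in the pTh17 and 1.56 FPKM in the npTh17 library, is far below Stat3.

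The ligands were at or near 0, with none of the 5 subunit genes reaching 1 CPM. Il12b, the p40 subunit shared by IL-12 and IL-23, and Il27, the p28 subunit of IL-27, had no count in either library, which with a floor of 3 counts allows up to 0.0970 CPM in the pTh17 and 0.0898 CPM in the npTh17 library. Il12a, the p35 subunit of IL-12, had 0 counts in the pTh17 and 2 in the npTh17 library, and Il23a, the p19 subunit of IL-23, had 0 in the pTh17 and 3 in the npTh17 library. Ebi3, a subunit of IL-27 and IL-35, was the exception, with 30 counts (0.725 FPKM) in the pTh17 and 0 in the npTh17 library. Against a floor of 3 counts, Ebi3 was 10.8-fold higher in the pTh17 library, with a counting interval that starts at 8.26-fold. An antisense gene overlaps 23.4% of the exonic bases of Ebi3.

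Receptor genes of related cytokines did not follow Il12rb2 and Il23r. Of 8 measured genes, 3 had a ratio above 1 and 5 below, and none was past 2-fold, with a median log2 ratio of −0.047. Among all genes tested, 49.4% had a ratio above 1 and 4.20% were past 2-fold in either direction. Staying under 2-fold is thus what most genes did. Il6st, the gp130 chain of the IL-6 receptor, stood at 32.8 FPKM in the pTh17 and 49.9 FPKM in the npTh17 library, with a log2 ratio of −0.59 (−0.62 to −0.55). Il18r1 had a log2 ratio of −0.42 (−0.99 to 0.12) by counts and 0.037 by FPKM, and Il6ra and Ifngr2 were at −0.14 (−0.24 to −0.051) and −0.063 (−0.19 to 0.061). Il27ra, the receptor for the Ebi3-containing cytokine IL-27, stood at 0.020 (−0.036 to 0.076).

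Inhibitors of JAK-STAT signalling were split, with 8 of 15 above 1, 7 below and a median log2 ratio of 0.0029. This is close to the split of all genes tested, of which 49.4% were above 1. In the pTh17 direction, 2.25% of all genes reached 2-fold. Cish, a feedback inhibitor induced by STAT5, was the one past 2-fold, at 34.3 FPKM in the pTh17 and 16.0 FPKM in the npTh17 library and 2.14-fold higher (2.02 to 2.27). Its relative Socs2 was lower, at a log2 ratio of −0.50 (−0.58 to −0.42), while Socs7 was at 0.55 (0.45 to 0.66) and Pias3 at 0.33 (0.092 to 0.57). Socs3, the main inhibitor of IL-6 and IL-23 signals, stood at 19.1 FPKM in both libraries with a log2 ratio of 0.0029 (−0.093 to 0.098).

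Of the genes that IL-12 and STAT4 are known to induce, 7 of 8 measured had a ratio above 1, 3 were at least 1.5-fold higher and none was past 2-fold, with a median log2 ratio of 0.33. Over all genes tested, the share above 1 was 49.4%, and 7.20% reached 1.5-fold in the pTh17 direction. The list was chosen with earlier results of these data known, and 4 more of its genes were under 1 CPM. The gene below 1 was Il18r1, at a log2 ratio of −0.42 (−0.99 to 0.12) by counts and 0.037 by FPKM. Gadd45b, a stress-response gene that amplifies IFNγ production, stood at 26.9 FPKM in the pTh17 and 15.2 FPKM in the npTh17 library and was 1.75-fold higher (1.60 to 1.93). Its relative Gadd45g was 1.40-fold higher (1.22 to 1.62). With a trend over transcript length and GC content removed, the log2 ratio fell from 0.81 to 0.61 for Gadd45b and from 0.49 to 0.22 for Gadd45g. Both lower values lie under the counting interval of the gene, whereas those of Tbx21 and Map3k8 stayed within theirs. Tbx21, which encodes T-bet, stood at 4.43 FPKM in the pTh17 and 2.76 FPKM in the npTh17 library. Map3k8, a MAP kinase activator, stood at 11.3 FPKM in the pTh17 and 7.49 FPKM in the npTh17 library. Ifng, the main product of IL-12 signalling, and the homeobox gene Hlx had no count in either library.

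Genes of the IL-23 and Th17 response went both ways, with 5 of 8 above 1 and a median log2 ratio of 0.068. Of all genes tested, 49.4% were above 1 and 2.25% reached 2-fold in the pTh17 direction. Prdm1, which encodes the repressor Blimp-1, was past 2-fold, at 0.460 FPKM in the pTh17 and 0.204 FPKM in the npTh17 library, with a log2 ratio of 1.16 (0.63 to 1.75) by counts and 0.88 by FPKM. The chemokine receptor gene Ccr6 was lower, at 3.43 FPKM in the pTh17 and 5.36 FPKM in the npTh17 library (log2 ratio −0.82, −1.14 to −0.51). Il21 and Il17f, both abundant cytokine genes, had log2 ratios of 0.93 (0.89 to 0.97) and −0.58 (−0.61 to −0.54). Il22 and Csf2 were under 1 CPM and differed in opposite directions on few counts. Il22 had 8 counts in the pTh17 and 0 in the npTh17 library, with a counting interval that starts at 1.84-fold. Csf2 had 9 in the pTh17 and 21 in the npTh17 library, at a log2 ratio of −1.03 (−2.42 to 0.077).

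Of 10 measured genes of factors known to act on Il23r or Il12rb2, 7 had a ratio below 1 and 3 above, with a median log2 ratio of −0.37. Over all genes tested, the share below 1 was 50.6%. The list holds both activators and repressors, so this count has no single reading. Sgk1, a kinase that inactivates Foxo1 and sustains Il23r expression in mouse Th17 cells, stood at 11.6 FPKM in the pTh17 and 26.9 FPKM in the npTh17 library and was 2.30-fold higher in the npTh17 library (2.14 to 2.48). Gata3, a repressor of Il12rb2, was also past 2-fold in that direction by counts, at a log2 ratio of −1.05 (−1.93 to −0.30), but stood at −0.79 by FPKM and at low levels of 0.173 FPKM in the pTh17 and 0.372 FPKM in the npTh17 library. Of all genes tested, 1.95% reached 2-fold in the npTh17 direction. Rora, a nuclear receptor gene of Th17 cells, was 1.90-fold higher in the npTh17 library (1.82 to 1.99), and Tbx21 at 0.69 (0.46 to 0.92) was above 1. Sgk1 and Il23r therefore differed in opposite directions in these libraries.

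Protein-coding genes among the next 2 on either side of each gene were examined. Beside the pair of Il12rb2 and Il23r, Serbp1 was near a ratio of 1 and the stress gene Gadd45a was at a log2 ratio of −0.75 (−1.34 to −0.20) on 42 counts in the pTh17 and 77 in the npTh17 library. The neighbours of Il12rb1 lay between −0.058 for Arrdc2 and 0.19 for Mast3, so its ratio stood apart from theirs beyond counting error, and Kcnn1 was under 1 CPM. Upstream of Stat4, Nabp1 was at 0.24 (0.18 to 0.31). Near Jak2, Insl6 was at 1.32 (0.69 to 2.06) on 64 counts in the pTh17 and 27 in the npTh17 library, and Rcl1 was at 0.070 (0.0085 to 0.13). Of the genes near Tyk2, Cdc37, a kinase co-chaperone, was at 0.12 (0.076 to 0.16). Raver1 and Fdx1l were past 2-fold in the pTh17 direction but share 99.7% and 72.7% of their exonic bases on the same strand with Gm38431, which makes their values uncertain.

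**Figure D5:**
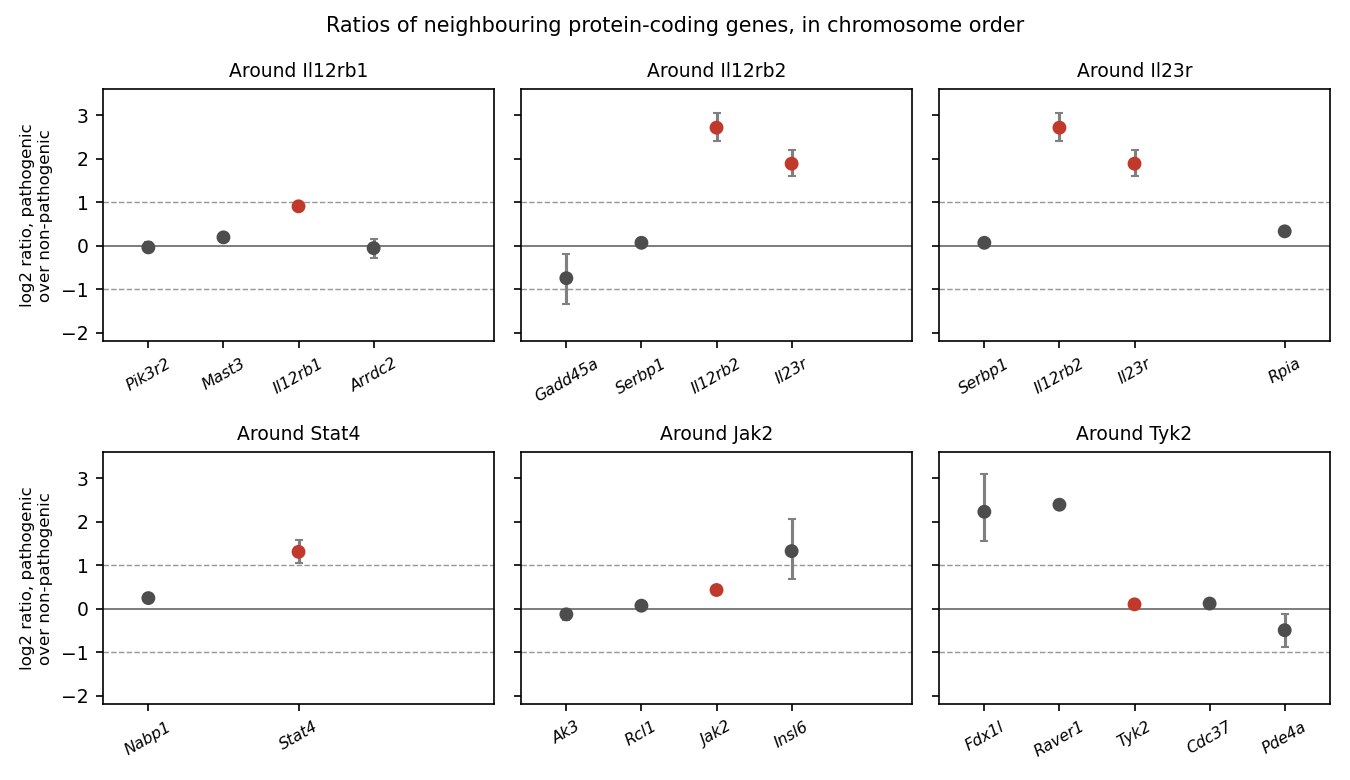
Log2 ratio, pTh17 over npTh17, of each gene (red) and protein-coding genes among the next 2 on either side (grey) in chromosome order, with 95% counting intervals and dashed 2-fold lines; not every neighbour is drawn. Il12rb2 and Il23r stand together above 2-fold between Serbp1 at 0.064 and Rpia at 0.33.

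Markers of other cells that can express IL-12 receptor genes were low. The NK cell markers Ncr1, Klrb1c and Klrk1 summed to 0.0647 CPM in the pTh17 and 0 in the npTh17 library, with Ncr1 and Klrb1c at 0 in both. For CD8 T cells, Cd8a and Cd8b1 summed to 1.91 CPM in the pTh17 and 1.89 CPM in the npTh17 library. The 4 B cell markers summed to 0.808 CPM in the pTh17 and 0.180 CPM in the npTh17 library, and none of them reached a mean of 1 CPM. The 4 myeloid markers summed to 3.78 CPM in the pTh17 and 4.58 CPM in the npTh17 library, mostly from Cd68, with Csf1r at 0, and the 3 dendritic cell markers to 0.0647 CPM in the pTh17 and 0.658 CPM in the npTh17 library, with Flt3 at 0. Of the 6 Th17 markers all, Il23r among them, were above 1 CPM in the mean. Of the 4 Th1 markers, which include Il12rb2 and Stat4, Ifng was at 0. The part of other cells in the ratios was not tested.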

How the data were processed

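The authors deposited whole-number counts per gene in one table and FPKM values in another, per the file headers, and both tables hold pTh17 and npTh17 columns. The submitters' processing notes name the build mm10. Aligner, counter, strand setting and annotation were not given in the sources used here. Of the 23702 rows, 10 were blank, 10 held stray text and 1646 were features with no gene name. These features, left out, made up 2.50% of pTh17 counts and 2.90% of npTh17 counts.

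Library sizes were scaled with TMM in edgeR 4.0.16 (R 4.3.3). The ratio of a gene is the log2 ratio of CPM with a prior count of 1, with a 95% interval taken from the Clopper-Pearson limits (exact) for the pTh17 share of the gene's counts. The change of a ratio between 2 genes has the exact conditional interval of the odds ratio (SciPy 1.17.1). Intervals and floors cover counting error only, since PCR copies cannot be told from separate molecules without molecular identifiers. Genes with 2 counts outnumbered those with 1 by 3.42 times in the pTh17 and 4.37 times in the npTh17 library, so a fragment may have added more than 1 and intervals can be too narrow. No p-value was computed, because each condition had 1 library. A gene was called at 2-fold with a mean of at least 1 CPM. The calculations were tested on simulated counts that held counting error alone. That test therefore does not cover variation between cultures or fragments counted more than once.

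Positions, neighbours and exon overlaps are from GENCODE M21 (GRCm38, the assembly named mm10), and promoters from RefSeq on GRCm38.p6. Members and gene lists were chosen with earlier results of these data known. Named were all members, the list genes under a rule of size (up to 4 per list, or all of a list of up to 5, and those at 0), each member's 2 nearest genes in level, its chromosomal neighbours and its JAK or STAT family. Il27ra and Socs3 were named beyond that rule after their values were seen. Some genes that the rule would name are not reported here.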

Additional observations from a re-analysis of the deposited data

How the results depend on the processing

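The 6 log2 ratios kept their sign under 8 alternatives each, covering library scaling, the prior count, FPKM with pseudocounts of 0.1 and 1, unnamed features and a length and GC trend. Of all 80 alternative values, 71 stayed within the counting interval, or within 1.5 times for a count, and none changed sign. With FPKM and a pseudocount of 1, the log2 ratios were 1.82 for Il12rb2, 1.31 for Il23r and 0.92 for Stat4, which took Stat4 under 2-fold. With the length and GC trend removed they were 0.84 for Il12rb1 and 0.49 for Jak2. With counts halved, which leaves the ratio as it is and changes its interval alone, the interval of Stat4 widened to between 0.95 and 1.70. Past 2-fold in the pTh17 direction, 96 genes were counted with a minimum mean of 5 CPM and 1192 without a filter, in place of 238; in the npTh17 direction these were 101 and 1136, in place of 207. The changes of gene pair ratios and the count of 3 members past 2-fold did not move beyond these limits under the alternatives run for them, which for the count did not include the pseudocount of 1. By counts per kilobase, Il12rb1 stood at 0.983 times Jak2 in the pTh17 library, in place of 1.03. No paired analysis was possible because each condition has 1 library, and no replicate could be left out. Depth limits Il12a and Il23a, whose counts of 0 to 3 do not distinguish the libraries.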

Other observations

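The genes nearest to each member in level, by distance over log2(CPM + 1) in the 2 libraries, were sought among named protein-coding genes with a minimum mean of 1 CPM, predicted genes left out. Il12rb2, at 18.6 CPM in the pTh17 and 2.81 CPM in the npTh17 library, was nearest to Hic1, a transcriptional repressor gene, at 19.3 CPM in the pTh17 and 2.21 CPM in the npTh17 library. Cyp1b1 came next, at 13.3 CPM in the pTh17 and 2.27 CPM in the npTh17 library. For Il23r they were Cysltr1, a leukotriene receptor gene, at 10.7 CPM in the pTh17 and 3.29 CPM in the npTh17 library, and Hist1h3a, a histone gene. For Stat4 they were Plxnb2 and Mcrip2, for Il12rb1 Chd7 and Chst2, for Jak2 Amd1 and Snrpb, and for Tyk2 Aagab and Pgrmc1. The distances were largest for Il12rb2, at 0.252 and 0.509, and smallest for Tyk2, at 0.0080 and 0.014. With 2 libraries such a likeness rests on 2 values per gene.

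Away from the receptor genes, the myeloid and dendritic cell markers Itgam and Itgax were seen in the npTh17 library alone. Itgam had 0 counts in the pTh17 and 24 in the npTh17 library. Against a floor of 3 counts it was 7.40-fold higher in the npTh17 library, with a counting interval that starts at 5.57-fold. Itgax had 0 counts in the pTh17 and 20 in the npTh17 library. Against the same floor it was 6.17-fold higher in the npTh17 library, with an interval that starts at 4.57-fold. The B cell gene Cd79b went the other way, with 11 counts in the pTh17 and 0 in the npTh17 library. Their part in the results was not tested.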
